A study of Homo sapiens with 6 samples.

Results

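Levels of 8 genes of intestinal identity were measured in HCT116, an established cell line that grew out of a human colon tumour of poor differentiation. The genes were chosen by name: the transcription factors CDX1, CDX2, HNF4A, KLF4, KLF5, GATA6 and SOX9, and villin (VIL1), out of 28278 gene symbols in the count tables. All 8 have a row, 7 had at least 1 count, and 6 had enough counts to be tested among 14002 genes. The control group (shControl, genotype WT, 3 libraries) carried a scrambled shRNA, and the knockdown group (shTRIM21, 3 libraries) carried an shRNA directed at TRIM21. In both groups the shRNA came by lentivirus, the cells were kept in puromycin, and the libraries are labelled day 21. TRIM21 is an E3 ubiquitin ligase, and the control cells therefore differ from unmodified HCT116 by virus, shRNA and selection. The labels call the libraries biological replicates without saying that they were separate cultures, and do not say whether the selected cells were a pool or a clone, so p-values here measure the spread between these libraries, which may be technical. In bulk RNA, fewer cells that express a gene and less RNA per cell cannot be told apart.

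The intestinal epithelium takes its identity from a small set of DNA-binding proteins. CDX1 and CDX2 are caudal-type homeobox factors, HNF4A is a nuclear receptor, and GATA6 is a zinc finger factor, and these switch on enterocyte genes together. KLF5 is typical of dividing crypt cells and KLF4 of cells that leave the cycle, while SOX9 marks crypt base cells and restrains differentiation. VIL1 bundles actin in the microvilli of the brush border and is a textbook target of this network.

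None of the 6 tested genes passed between shTRIM21 and shControl cells. In edgeR's quasi-likelihood test, with p-values adjusted over all tested genes (Benjamini-Hochberg, threshold 0.05), 0 of 6 were called, against 9.08% of all tested genes. At an unadjusted p under 0.05 there were 0 of 6, beside 3188 of all 14002 tested genes. DESeq2 and limma-voom also called 0 of 6, with 0 at an unadjusted p under 0.05. The point estimates were lower in shTRIM21 for KLF4, SOX9, CDX2 and VIL1 and higher for KLF5 and GATA6. Their median log2 fold change was -0.20, beside 0.01 for all tested genes. HNF4A was near 0 and CDX1 was listed at 0 in every library.

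The library totals ran from 22656160 to 27123657 counts. Genes of rRNA held 6.69% of the total in shControl replicate 3 and 9.55% in shTRIM21 replicate 3. In the other libraries they held 13.16% to 15.22%. TRIM21 itself had 288, 286 and 443 counts in shControl and 225, 182 and 173 in shTRIM21, with a log2 fold change of -0.73 (SE 0.17, adjusted p = 0.0124 in edgeR's test). That call was lost without shTRIM21 replicate 3 (-0.62, adjusted p = 0.0734) and when both replicates 3 were left out (-0.45, adjusted p = 0.114). Whether the lower rRNA share of the replicates 3 had a part in this was not tested. The colon label was set against 11 epithelial and intestinal markers, CDX2 and VIL1 among them. KRT18 and KRT8, keratins of simple epithelia, were at 74.6 and 40.4 CPM (the count scaled by the TMM-adjusted size of its library) over all libraries, and the adhesion molecule EPCAM at 18.8 CPM. CDH1 was at 4.11 CPM, KRT19 at 1.17 CPM and CDH17 at 0.790 CPM, KRT20 and GPA33 were below that, and LGALS4 was listed at 0. The summed level of these 11 markers ran from 185 to 198 CPM in shControl and from 172 to 174 CPM in shTRIM21, without overlap. Abundant markers weigh most in this sum. Mean KRT18 was 78.7 CPM in shControl and 70.4 in shTRIM21, and mean KRT8 43.2 and 37.7 CPM. The sum alone therefore does not describe the whole panel. Of the 8 tested markers 0 were called and 7 had a negative fold change, with EPCAM alone positive (0.13). The groups did not overlap for 5 of the 8, beside 28.1% of all tested genes. The unadjusted p was under 0.05 in edgeR's test for 2 (KRT8 and KRT18), beside 3188 of all 14002 tested genes. The part of these markers in the results below was not tested. The lists of fibroblast, endothelial and leukocyte markers each summed to at most 0.490 CPM in any library.

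CDX2, the caudal-type factor that directs intestinal fate, is encoded on chromosome 13, minus strand, from 27962137 to 27971139 (GENCODE release 29, GRCh38). The 3 shControl libraries held 290, 226 and 243 counts of it and the 3 shTRIM21 libraries 212, 196 and 182. These correspond to 11.9, 9.23 and 8.65 CPM in shControl and 8.32, 8.81 and 7.03 CPM in shTRIM21. The highest library was shControl replicate 1 and the lowest shTRIM21 replicate 3, but shTRIM21 replicate 2 lay above shControl replicate 3, so the groups overlapped. The means were 9.92 ± 1.71 and 8.05 ± 0.917 CPM (SD, n = 3 per group). The log2 fold change was -0.30 with a 95% interval of -0.67 to 0.07 (adjusted p = 0.339 in edgeR's test), and it was -0.15 without shControl replicate 1. Its paralog CDX1, on chromosome 5 at 150166795 to 150184558, was listed at 0 in all 6 libraries. Genes that nearly every cell transcribes, CANX, RPL7A, ZYX, TJP1 and NDUFS1, were also listed at 0 throughout these tables, so the CDX1 value is not read as absence.

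The RefSeq promoter window of CDX2 is shown because CDX proteins are known to act on AT-rich elements and CDX2 had the highest mean CPM among the factors. The window covers 250 bases before and 50 bases after the start, at chr13:27969266-27969565 on the minus strand (GRCh38.p14). It lies inside the GENCODE span of the gene, which runs to 27971139, and gene-level counts do not say which start was used. Capitals mark the CDX-type core TTTAT on either strand (ATAAA on the other), and the window holds no TATAAA on either strand.
CDX2: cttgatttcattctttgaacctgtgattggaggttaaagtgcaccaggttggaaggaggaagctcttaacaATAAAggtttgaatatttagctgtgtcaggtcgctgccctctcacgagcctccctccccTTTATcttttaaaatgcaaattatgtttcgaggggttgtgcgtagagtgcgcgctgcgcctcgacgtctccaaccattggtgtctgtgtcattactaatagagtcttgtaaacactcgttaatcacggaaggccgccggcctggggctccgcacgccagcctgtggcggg
It holds 2 such cores and 16 CpG pairs. The core occurs in 34.9% of the 35116 promoter windows of this length, where the median number of CpG pairs is 14.

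HNF4A, the nuclear receptor, was close to the detection limit. The 3 shControl libraries held 3, 4 and 2 counts of it and the 3 shTRIM21 libraries 2, 3 and 4, a total of 9 in each group, and it was too low to be tested. No library stood apart. The gene lies on chromosome 20 at 44355700 to 44434596, and gene-level counts do not separate its transcript starts. Its paralog HNF4G, which binds similar DNA, was far above it at 30.5 ± 2.26 CPM in shControl and 25.1 ± 4.34 CPM in shTRIM21 (SD, n = 3 per group). HNF4G had a log2 fold change of -0.28 that did not pass (adjusted p = 0.182 in edgeR's test), although its groups did not overlap. Per kb of exon, HNF4A was at 0.0168 ± 0.00534 CPM and HNF4G at 6.24 ± 0.955 CPM (SD, n = 6).

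GATA6, a zinc finger factor of endodermal tissues on chromosome 18 at 22169443 to 22202528, had 158, 132 and 206 counts in shControl and 145, 160 and 172 in shTRIM21. In CPM the controls stood at 6.46, 5.39 and 7.33 and the knockdown libraries at 5.69, 7.19 and 6.64. The 2 ranges lay almost on top of each other, with both extremes in shControl. The log2 fold change was 0.02 (95% interval -0.40 to 0.44, adjusted p = 0.966 in edgeR's test), and its sign turned without shControl replicate 2 (-0.09) or shTRIM21 replicate 2 (-0.05). The antisense RNA GATA6-AS1 shares 240 exon bases with GATA6 and had between 0 and 5 counts per library. GATA4, the relative of the proximal gut, was at 13.2 CPM over all libraries and 3.48 CPM per kb, above GATA6 at 1.64 CPM per kb in every library. GATA4 did not pass either (0.26, adjusted p = 0.389).

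KLF5, the Krüppel-like factor of proliferating crypt cells, lies on chromosome 13 at 73054976 to 73077542. It had 170, 162 and 250 counts in shControl and 216, 196 and 232 in shTRIM21. In CPM these were 6.95, 6.62 and 8.90 against 8.47, 8.81 and 8.96, so shControl replicate 3 sat among the knockdown libraries and the other 2 controls below them. The means were 7.49 ± 1.23 and 8.75 ± 0.249 CPM (SD, n = 3 per group), with a log2 fold change of 0.22 (95% interval -0.15 to 0.59, adjusted p = 0.502 in edgeR's test). Without shControl replicate 3, which held the overlap, the value was 0.37 with an adjusted p of 0.21. It was 0.14 without shControl replicate 2 and 0.36 with both replicates 3 left out.

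KLF4, the factor of post-mitotic epithelium on chromosome 9, minus strand, 107484852 to 107490482, had the lowest level of the tested genes. It was counted 91, 50 and 96 times in shControl and 63, 49 and 46 times in shTRIM21. The CPM were 3.72, 2.04 and 3.42 against 2.47, 2.20 and 1.78, with shControl replicate 2 inside the knockdown range. The log2 fold change of -0.51 was the largest among the tested genes in size, and its 95% interval of -1.19 to 0.17 was the widest (adjusted p = 0.374 in edgeR's test). Leaving out shControl replicate 2 gave -0.73 with an unadjusted p of 0.0489 and an adjusted p of 0.252, and leaving out both replicates 3 gave -0.29. For 10.9% of all tested genes the fold change was larger in size than that of KLF4.

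The promoters of KLF4 and KLF5 are shown side by side because both proteins recognise CACCC and GC boxes and the point estimates of the 2 genes had opposite signs. Capitals mark CACCC and GGGCGG on either strand (GGGTG and CCGCCC on the other). The KLF4 window is chr9:107489720-107490019 on the minus strand, and the KLF5 window, the downstream of 2 in the RefSeq table (GRCh38.p14), is chr13:73058755-73059054 on the plus strand.
KLF4: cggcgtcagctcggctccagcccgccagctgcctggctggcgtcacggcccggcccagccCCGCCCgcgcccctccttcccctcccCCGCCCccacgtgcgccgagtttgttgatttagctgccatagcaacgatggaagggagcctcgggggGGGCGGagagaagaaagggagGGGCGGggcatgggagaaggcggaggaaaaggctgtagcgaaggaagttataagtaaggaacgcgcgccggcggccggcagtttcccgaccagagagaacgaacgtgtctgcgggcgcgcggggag
KLF5: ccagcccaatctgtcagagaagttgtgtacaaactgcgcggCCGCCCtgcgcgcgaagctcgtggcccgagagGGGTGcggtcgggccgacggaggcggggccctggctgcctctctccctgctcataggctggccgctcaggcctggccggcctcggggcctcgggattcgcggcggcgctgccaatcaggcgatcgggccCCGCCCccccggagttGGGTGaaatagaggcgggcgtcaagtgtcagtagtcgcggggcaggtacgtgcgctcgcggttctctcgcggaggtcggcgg
The KLF4 window holds 4 GC boxes and 0 CACCC boxes, and the KLF5 window 2 of each. GC boxes occur in 45% of the 35116 windows and CACCC boxes in 59.9%. The windows hold 33 and 37 CpG pairs, and 69.0% and 71.3% of their bases are G or C, above the median of 58.7%. The KLF5 window not printed, around the upstream start, differs from both with 4 CpG pairs, 40.7% G or C, 0 GC boxes and 1 CACCC box. The KLF4 window lies inside the GENCODE span of its gene, which runs to 107490482. Gene-level counts do not say which KLF4 or KLF5 start was used.

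SOX9, the HMG-box factor of the crypt base on chromosome 17 at 72121020 to 72126420, had 95, 98 and 152 counts in shControl and 67, 94 and 99 in shTRIM21. The CPM were 3.89, 4.0 and 5.41 against 2.63, 4.22 and 3.82. The highest value was shControl replicate 3 and the lowest shTRIM21 replicate 1, with the other 4 libraries between 3.82 and 4.22 CPM. The log2 fold change was -0.32 (95% interval -0.87 to 0.23, adjusted p = 0.507 in edgeR's test). It was -0.15 without shControl replicate 3, -0.14 without shTRIM21 replicate 1 and -0.20 with both replicates 3 left out. SOX9-AS1 was listed at 0 in all libraries.

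VIL1, the microvillus protein, had 817, 803 and 987 counts in shControl and 783, 729 and 817 in shTRIM21. The CPM were 33.4, 32.8 and 35.1 against 30.7, 32.8 and 31.6, and to the third digit shControl replicate 2 and shTRIM21 replicate 2 were the same. The groups did not overlap, by 32.81 against 32.75 CPM. VIL1 was the only one of the 6 tested genes without overlap (16.7%), beside 28.1% of all tested genes. The log2 fold change was -0.09 with the narrowest 95% interval of the 6, -0.29 to 0.10 (adjusted p = 0.603 in edgeR's test). It was -0.06 without shControl replicate 3 and -0.05 with both replicates 3 left out.

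The VIL1 counts may not come from villin alone. The gene lies on the plus strand of chromosome 2 at 218419092 to 218453295, and its 3′ end overlaps the 3′ end of USP37, a deubiquitinase gene on the minus strand. The shared stretch, 218450251 to 218453295, covers 3045 exon bases, which are 44.0% of the VIL1 exon bases and 32.8% of those of USP37. The strand setting of the counting is not given in the sources used here. TALAM1, the antisense RNA of MALAT1, was at 1691 CPM over all libraries, close to MALAT1 itself at 1767 CPM. Whether reads were counted without regard to strand was not tested. USP37 had 1435 to 1868 counts per library, and the VIL1 count was 0.473 to 0.528 of it. If USP37 reads were spread evenly over its exons, 470 to 612 per library would fall in the shared stretch, which is 62.0% to 69.3% of the VIL1 count. USP37 did not pass (-0.11, adjusted p = 0.406 in edgeR's test). How many of the VIL1 reads came from USP37 was not tested.

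**Figure D1:**
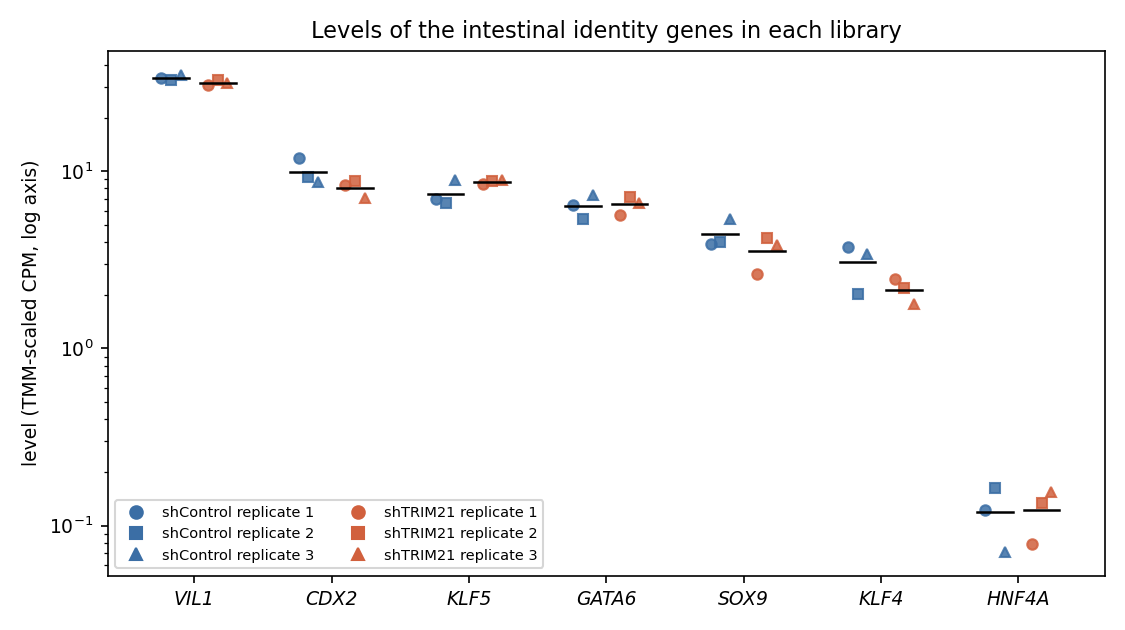
CPM of each library on a log axis for 7 identity genes, with shControl in blue, shTRIM21 in orange, a marker shape per replicate and a black bar at each group mean. The groups overlap for every gene but VIL1, and HNF4A lies near 0.1 CPM, while CDX1, listed at 0, cannot be drawn on this axis.

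The intervals set how large a change these libraries could have hidden. For VIL1 and GATA6 the 95% interval lay within a 1.5-fold change either way, and for those and CDX2, KLF5 and SOX9 within a 2-fold change. The VIL1 interval is for every read assigned to the gene, part of which may come from USP37, so it does not bound villin alone. Expressed as folds of the control level, CDX2 lay between 0.627 and 1.05, KLF5 between 0.90 and 1.51, SOX9 between 0.547 and 1.17, GATA6 between 0.760 and 1.36 and VIL1 between 0.818 and 1.07. KLF4 lay between 0.439 and 1.12, so a decrease to less than 0.5 of the control level was within its interval. KLF4 and SOX9 had 395 and 605 counts over all libraries, beside 4936 for VIL1. The median SE of the 6 was 0.19 on the log2 scale, beside 0.12 over all tested genes.

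**Figure D2:**
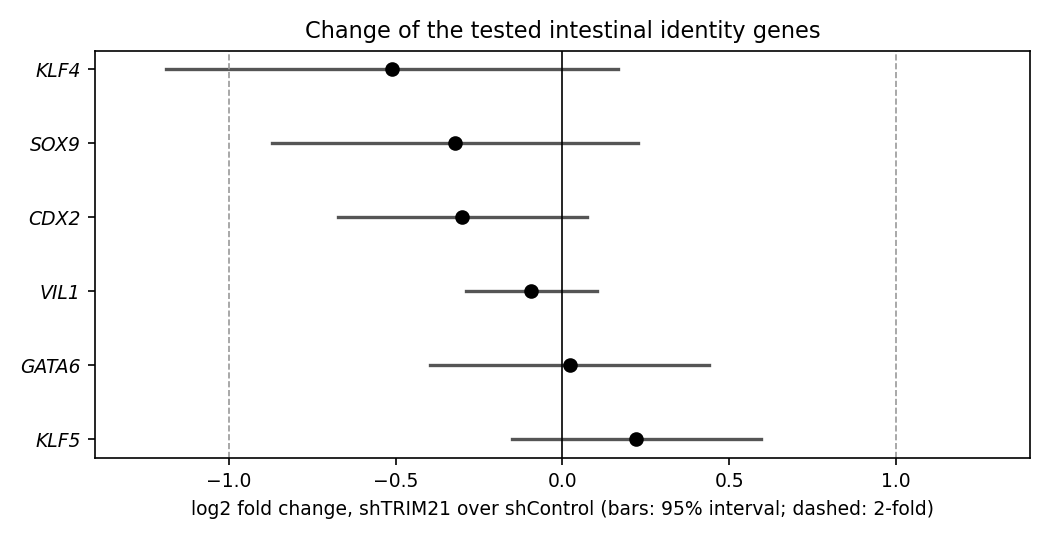
Log2 fold change of shTRIM21 over shControl for the 6 tested identity genes (points), with 95% intervals from edgeR's quasi-likelihood fit (bars) and dashed lines at a 2-fold change. Every interval crosses 0, and that of KLF4, -1.19 to 0.17, alone passes a dashed line.

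Levels of different genes were compared per kb of exon, over all 6 libraries. VIL1 stood at 4.76 ± 0.222 CPM per kb (SD, n = 6), counting every read assigned to it. CDX2 followed at 2.22 ± 0.394, KLF5 at 2.17 ± 0.281, GATA6 at 1.64 ± 0.198, SOX9 at 1.02 ± 0.226 and KLF4 at 0.888 ± 0.268 CPM per kb. From CDX2 down to KLF4 each gene overlapped its neighbour in the order, and CDX2 and KLF5 changed places when the longest coding transcript was taken as the length (2.22 and 2.28). VIL1 did not overlap CDX2, nor KLF4 HNF4A. The first place of VIL1 may depend on the stretch shared with USP37. With the evenly spread USP37 share taken off, an alternative chosen after seeing the data, VIL1 stood at 1.64 ± 0.172 CPM per kb (SD, n = 6), beside 1.64 for GATA6 and below the means of CDX2 and KLF5. That alternative assumes that every such read was counted to VIL1, and it kept the full exon length. A length without the shared stretch would give a higher value and was not computed. All of these levels were below the median of 7.18 CPM per kb of tested genes: VIL1, with all its assigned reads, was above 39.8% of them, CDX2 above 25.1% and KLF4 above 14.2%.

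The most abundant relatives of several factors were above the factors themselves. The KLF and SOX relatives given here were picked as the 3 highest of their lists. Other relatives lay below KLF5 or SOX9, and 3 of 15 KLF and 7 of 18 SOX relatives were listed at 0. KLF10, a factor induced by TGF-beta, was at 30.9 CPM per kb and KLF6 and KLF3 at 11.1 and 8.58 CPM per kb, all above KLF5 and KLF4 in every library. SOX4, SOX12 and SOX8 were at 7.63, 5.80 and 4.11 CPM per kb, above SOX9 in every library. Of the 11 tested KLF relatives 0 rose and 1 fell, and of the 6 tested SOX relatives 0 rose and 1 fell. The called share of the KLF relatives, 9.09%, was close to that of all tested genes (9.08%), and the SOX share rests on a single gene. KLF10 fell, with 144 ± 4.43 CPM in shControl and 103 ± 5.47 in shTRIM21 (SD, n = 3 each), with a log2 fold change of -0.49 (SE 0.07, adjusted p = 0.000115 in edgeR's test). SOX4 fell from 49.4 ± 2.78 CPM to 39.8 ± 2.46 CPM (-0.31, SE 0.09, adjusted p = 0.0319), a call lost with total-count scaling (0.0612) and when any 1 library was left out (adjusted p from 0.0516 to 0.12). Of the other genes in the CDX, GATA and HNF4 families only GATA4 and HNF4G were tested, and 0 were called. In edgeR's test 1 of them had an unadjusted p under 0.05, beside 3188 of all 14002 tested genes.

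**Figure D3:**
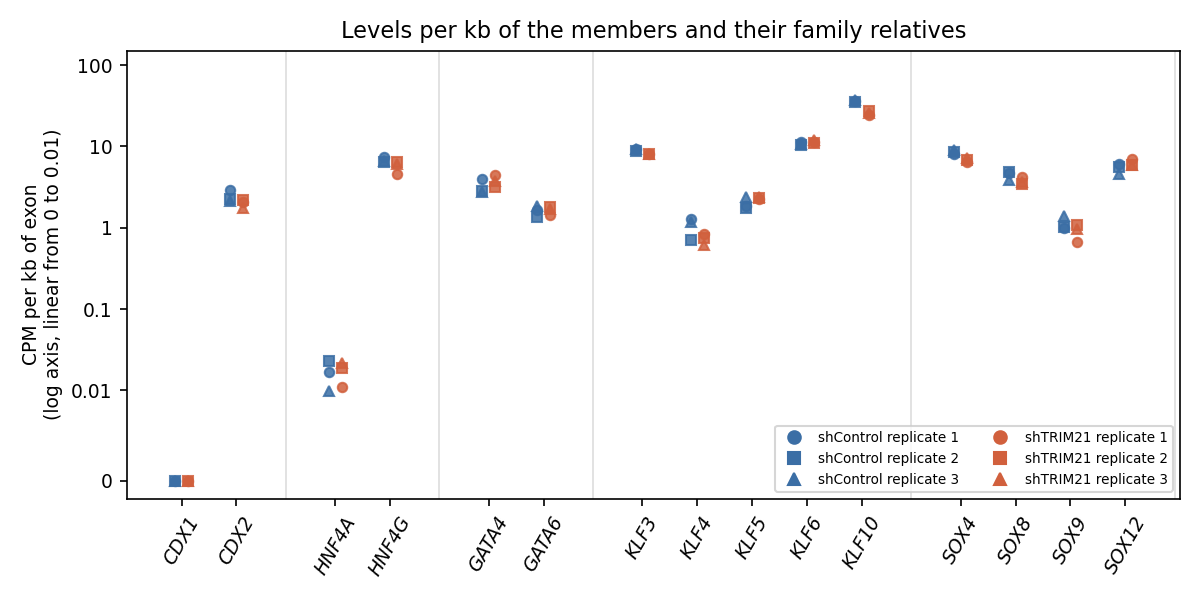
CPM per kb of exon of each library (log axis, linear between 0 and 0.01) for identity genes and relatives of the same family, with colours and marker shapes as for the levels by library. HNF4G, GATA4, KLF10 and SOX4 lie above HNF4A, GATA6, KLF5 and SOX9 in every library.

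Among 40 other intestinal transcription factors, a list that also holds KLF3, SOX4, GATA4 and HNF4G, 23 were tested, 1 rose, 3 fell and 19 did not pass. The median log2 fold change of the 23 was -0.03. The called share was 17.4%, beside 9.08% of all tested genes. The SOX4 and SMAD4 calls were lost in 7 and 2 of the 15 alternatives. Of the calls reported here only that of PRDM1 held in all 15. PRDM1, the repressor BLIMP1 of the fetal gut epithelium, rose, with 2.83 ± 0.471 CPM in shControl and 5.86 ± 0.483 in shTRIM21 (SD, n = 3 each), with a log2 fold change of 1.05 (SE 0.24, adjusted p = 0.00924 in edgeR's test). SMAD4, the shared mediator of TGF-beta and BMP signals, fell from 77.7 ± 4.14 to 61.7 ± 3.42 CPM (-0.33, SE 0.08, adjusted p = 0.0104), a call lost without shTRIM21 replicate 3 (adjusted p = 0.07) and with both replicates 3 left out (0.0527). MYC, the most abundant of the list at 296 CPM, had 0.19 and an adjusted p of 0.0558.

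Of 31 microvillus and brush border genes in the files, the group VIL1 belongs to, 20 were tested, 3 rose, 0 fell and 17 did not pass. Their median was 0.02 and the called share 15.0%, beside 9.08% of all tested genes, with 1 of the 3 calls (GSN) lost in several alternatives. In edgeR's test 6 of the 20 had an unadjusted p under 0.05, beside 3188 of all 14002 tested genes. Without a call, PLS1 (-0.28, unadjusted p = 0.00927) and MYO1D (-0.54, 0.0216) were lower and MYO1E (0.28, 0.0156) higher. The calls alone therefore do not describe the whole list. Among the genes not tested, MYO7B, ANKS4B and TRPV6 were listed at 0. MYO1A, ESPN, USH1C and CDHR5 had at most 11 counts in any library. EZR, the linker ezrin that ties the actin of microvilli to the membrane, was at 236 ± 2.42 and 231 ± 14.3 CPM (SD, n = 3 per group). It did not pass (-0.03, adjusted p = 0.798 in edgeR's test). STX3, an apical syntaxin, rose from 79.3 ± 2.03 CPM to 112 ± 8.09 CPM (0.49, SE 0.07, adjusted p = 0.00021 in edgeR's test). RAB11A, a GTPase of recycling endosomes, rose from 199 ± 10.8 to 245 ± 8.27 CPM (0.30, SE 0.06, adjusted p = 0.00571 in edgeR's test). GSN, gelsolin, a relative of villin that severs actin, rose from 9.11 ± 2.23 to 13.5 ± 0.982 CPM (0.57, SE 0.17, adjusted p = 0.0487). The GSN call was lost with upper-quartile scaling (0.0525), with both replicates 3 left out (0.225), and without shControl replicate 1 (0.117), shControl replicate 3 (0.11) or any shTRIM21 replicate (0.0915 to 0.172).

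Of 37 products of intestinal differentiation only 5 were tested, 17 were listed at 0, and 0 of 5 passed. At an unadjusted p under 0.05 in edgeR's test there were 2 of 5, beside 3188 of all 14002 tested genes. The median of the 5 was 0.16 on the log2 scale. The carbonic anhydrases CA2 and CA4 were the most abundant. CA2 was at 16.99 ± 0.948 and 20.9 ± 2.69 CPM in shControl and shTRIM21 (SD, n = 3 per group), and did not pass (0.30, adjusted p = 0.166 in edgeR's test). CA4 was at 12.6 ± 0.405 and 10.03 ± 1.05 CPM and did not pass (-0.33, adjusted p = 0.199). TSPAN8, a tetraspanin, followed at 0.770 and 1.01 CPM.

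Of 12 antisense and neighbouring transcripts of the identity genes, 8 were in the files and 4 of those, SOX9-AS1, HNF4A-AS1, CASC17 and URAD, were listed at 0. GATA6-AS1, LINC00511 and LINC01152 had at most 5 counts in any library. PDX1, a homeobox gene beside CDX2, was the only one tested, at 3.59 and 3.65 CPM, and did not pass (0.03, adjusted p = 0.97 in edgeR's test).

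**Figure D4:**
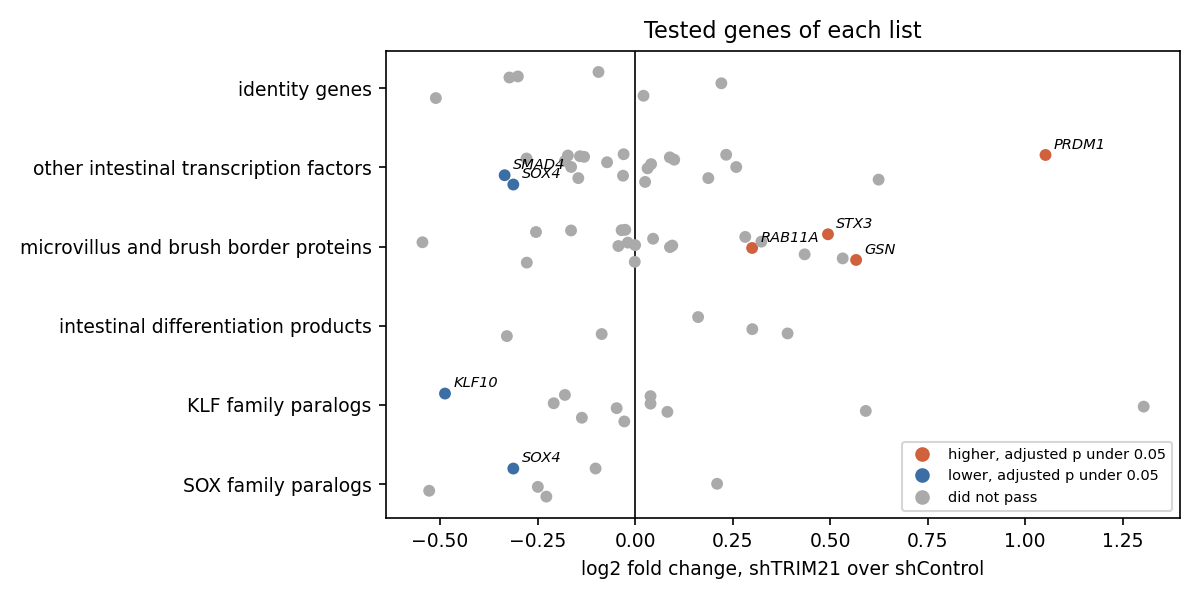
Log2 fold change of each tested gene by list, with genes past an adjusted p of 0.05 in orange (higher) or blue (lower) and the rest in grey, spread vertically only to separate points. Genes past the threshold but under 5 CPM in both groups are not drawn. No identity gene is coloured, while PRDM1 at 1.05 stands furthest from 0 among the coloured genes.

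The genes whose log2 CPM followed those of an identity gene most closely over the 6 libraries were found among 10652 others with at least 5 CPM, for the 4 identity genes that reached that level. For CDX2 they were TRAM2 (Pearson's r 0.99) and TEN1-CDK3 (0.98), for KLF5 ZNF439 and ZFAS1 (1.00 each), for GATA6 ACOT9 and GCA (0.99 each), and for VIL1 SLC35G1 and DUS4L-BCAP29 (1.00 and 0.99). None of these 8 genes was called, but they were picked for following genes that were not called, so this is no separate result. With 6 libraries such values are common, since 66, 345, 112 and 533 genes were above 0.9 for CDX2, KLF5, GATA6 and VIL1. USP37, looked up because of the shared exon, had 0.67 with VIL1, which was rank 2143 among the 10652 genes.

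An earlier analysis of these libraries had singled out, from the same fold changes, a pair of 7-base sequences in 3′ UTRs, AGTGGAA and GTGTCAC. In the longest annotated 3′ UTR neither was present in any of the 6 tested identity genes or in HNF4A, and CDX1 held 1 AGTGGAA. They occur in 16.0% and 9.79% of the 11834 tested genes with an annotated 3′ UTR.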

How the data were processed

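Each of the 6 libraries has a table in which the authors deposited whole-number read counts by gene symbol, unnormalized. The aligner TopHat2 2.1.1, the genome build hg38, and edgeR 3.38.1 with limma 3.52.2 are named in the submitters' processing notes. What counted the reads, on which annotation, strand setting and rule for multiply mapped reads, is not given in the sources used here, and per the labels' protocols the RNA was total RNA depleted of ribosomal RNA.

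Counts were filtered by edgeR's default (filterByExpr), scaled by TMM and tested with edgeR 4.0.16 in R 4.3.3 (glmQLFit and glmQLFTest, group only), with Benjamini-Hochberg adjustment over 14002 genes and a threshold of 0.05. The SE is the log2 fold change over the square root of F, and 95% intervals use the fit's degrees of freedom. Exon lengths and overlaps come from GENCODE release 29, promoters from RefSeq, which matched 5 of the 8 genes. Genes other than the 8 were named by level (the 3 highest of a list) or, from 5 CPM in the higher group, by the largest called changes. In the brush border list, genes with an unadjusted p under 0.05 and some genes too low to be tested were named as well. The genes, lists and alternatives were chosen with earlier results of these data known. Alternatives covered scaling, filter, DESeq2 1.42.0, limma-voom 3.58.1, libraries left out, the replicate block and rRNA genes left out. The results of 1 called gene of the lists are not reported here.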

Additional observations from a re-analysis of the deposited data

How the results depend on the processing

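In each of the 15 alternatives 0 of the 6 tested identity genes were called, with 602 to 1737 genes called in all. The only unadjusted p under 0.05 was that of KLF4 without shControl replicate 2 (0.0489). KLF4, SOX9, CDX2, VIL1 and KLF5 kept their direction throughout. With 1 library left out, GATA6 lay between -0.088 and 0.14, and it was negative without shControl replicate 2 (-0.088) and shTRIM21 replicate 2 (-0.054). TRIM21 lay between -0.82 and -0.56 when 1 library was left out. It missed the threshold without shTRIM21 replicate 3 (-0.62) and with both replicates 3 left out (-0.45), and the cause was not tested. KLF10, PRDM1, STX3 and RAB11A kept their call in all 15. Deviations from the group mean correlated by 0.096, -0.0123 and 0.0907 between libraries of number 1, 2 and 3. For numbers 1 and 3 no value across numbers was higher. For number 2, shControl replicate 2 had a higher value with shTRIM21 replicate 1 (0.048). The percentage of rRNA counts fell with the number in both groups: 14.73, 13.16 and 6.69 in shControl and 15.22, 13.53 and 9.55 in shTRIM21. The second principal component of log2 CPM (23.4% of the variance) fell likewise: 12.2, 5.87 and -31.8 in shControl and 22.9, 5.49 and -14.7 in shTRIM21. The labels do not say that the numbers pair the libraries, so the main test did not treat them as paired. With the replicate number as a block, 0 identity genes were called, TRIM21 was at -0.72, and 1699 genes were called in place of 1272. Without the evenly spread USP37 share, and with the full exon length kept, VIL1 moved from 4.76 to 1.64 CPM per kb. The spread of KLF4 in shControl (CV 29.2%) and of SOX9 in shTRIM21 (CV 23.3%) exceeded the counting error at their mean count (12.3% and 9.96%).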
